A study of Mus musculus with 28 samples.

Results

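*Dbp*, *Tef*, *Hlf* and *Nfil3* are 4 of the 24089 genes in the RNA-seq table, and they were chosen by name. DBP, TEF and HLF are the mammalian PAR bZIP factors, transcription factors that pair through a leucine zipper next to a region rich in proline and acidic residues and that activate genes through a DNA element called the D-box. NFIL3, also known as E4BP4, is a bZIP protein without that region. It binds the same element and in most settings represses from it, so PAR bZIP factors and NFIL3 are opposing inputs to shared targets, in the circadian clock above all. In lymphocytes *Nfil3* is known as a gene that responds to IL-4 and as a regulator of cytokine genes, whereas the PAR bZIP genes are best known from liver, kidney and brain, where their RNA cycles over the day. The question asked here was whether the paralogs of *Dbp* move with it when CD4+ T cells meet the cytokines that make Th9 cells, the T helper cells that secrete IL-9.

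Naïve CD4+ CD62L+ T cells came from spleen and lymph nodes of mice 8 to 10 weeks old on a C57BL/6 background, taken here to be *Tgfbr1* f/f *Ert2-cre*+. The labels name oil or tamoxifen for the DNase-seq libraries, and only WT or KO for the RNA-seq libraries. The methods also list a *Tgfbr1* f/f *Cd4-cre*+ line and do not say which line gave the RNA-seq cells. The methods name both sexes for the study as a whole, but in these RNA-seq columns *Xist*, expressed from the inactive X chromosome of females, was at 0.946 to 2.44 RPKM throughout, while the Y-linked *Kdm5d* was at 0 and *Ddx3y*, *Uty* and *Eif2s3y* did not exceed 0.0326 RPKM. *Tgfbr1* encodes TGF-β receptor I. In the *Ert2-cre*+ line KO mice received tamoxifen, which switches on the Cre fusion protein in any cell that carries it, and WT mice received oil. There the effect of tamoxifen itself and the loss of the receptor cannot be told apart. All cells were stimulated with plate-bound anti-CD3 and soluble anti-CD28, either alone (control) or with TGF-β1 (2 ng/ml), IL-4 (10 ng/ml) or both. There were 24 RNA-seq libraries, 3 for each of the 8 groups, and 4 DNase-seq libraries, 1 each for WT and KO cells under control and TGF-β + IL-4 conditions.

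The order of the RNA-seq columns has to be stated before any value. The headings of the 24 columns conflict with the read counts of 8 WT libraries that accompany the study. Matched by which genes are at 0, each of the 8 libraries matched 1 column for at least 99.8% of genes and the next best column for at most 85.8%. All 8 of those columns stood where the library numbers put them, and only 2 of them carried the heading of their library. The columns were therefore read by position in the order of library numbers, WT before KO, with each block of 4 running through control, TGF-β, IL-4 and both cytokines. This changed the heading of 20 of the 24 columns. The other 4 WT columns and all 12 KO columns had no read counts to check them, so the KO groups below rest on the same order without a check of their own. Values under the headings as deposited are given in the closing section.

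Levels are RPKM, reads scaled by library size and by the length of the gene, so they can be compared between genes. The relative depth of the columns ran from 0.794 to 1.66 of that of the reference column, with a median of 1.17, and absolute totals are unknown. The replicate number in the labels may name a mouse, but no source used here says so, and the p-values measure the spread between these libraries. All 6 CD4 T cell markers had a mean RPKM of at least 1 in every group, and their summed RPKM ran from 1035 to 1469. *Tgfbr1*, the targeted gene, was at 3.20 ± 0.151 RPKM (SD, n = 3) in WT control and at 14.1 ± 0.318 in WT TGF-β cultures. In the KO groups its means ran from 2.64 to 3.99 RPKM, and without TGF-β they did not differ from WT by the test (log2 difference of −0.21 in control, adjusted p = 0.225 by limma). With TGF-β it was lower in KO than in WT by −2.05 (adjusted p = 9.24e-12). Without TGF-β the deletion was thus not visible as a lower RNA level, which may include reads outside the deleted part. *Il9* means ran from 9.66 RPKM in WT control to 43.7 RPKM with TGF-β alone, and from 0.369 to 1.85 RPKM in KO groups. In WT cells with both cytokines the mean was 34.6 RPKM, below that with TGF-β alone by −0.33 (adjusted p = 0.0404 by limma). The TGF-β effect on *Il9* in WT was smaller with IL-4 than without it, by −0.91 (adjusted p = 0.00319 by limma). The paper states that either cytokine by itself fails to induce *Il9*, so this order differs from its account. The reason was not tested.

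The member genes differ in the DNA at their starts and in their open chromatin, and 4 stretches are shown because they lie under DNase I hypersensitive sites (DHSs) and hold, or lack, the elements through which the clock acts. DHSs are regions that DNase I cuts readily because the chromatin is open. All are from the mm9 build, 5′ to 3′ on the strand of the gene, with at most 30 bases past the start of the gene in the start sequences, and capitals mark the matched element. For *Dbp* the first is 300 bp around the summit of the DHS in an intron (chr7:52962992-52963291, + strand), with 2 E-boxes, the element CACGTG bound by CLOCK and BMAL1. The second is the start of *Dbp* (chr7:52960268-52960487, + strand), with the core of a REV-ERB element, TAGGTCA, bound by REV-ERB receptors. The third is the inner start of *Tef* (chr15:81641654-81641873, + strand), with 1 E-box, and the fourth is the start of *Nfil3* (chr13:53076413-53076632, − strand), where the same core reads TGACCTA on the strand of the gene.
*Dbp* intronic DHS: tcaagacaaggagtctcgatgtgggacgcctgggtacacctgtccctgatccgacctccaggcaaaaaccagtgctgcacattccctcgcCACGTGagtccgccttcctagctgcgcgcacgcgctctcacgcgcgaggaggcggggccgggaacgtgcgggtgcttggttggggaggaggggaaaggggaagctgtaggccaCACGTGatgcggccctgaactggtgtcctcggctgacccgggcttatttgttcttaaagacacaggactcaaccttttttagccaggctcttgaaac
*Dbp* start: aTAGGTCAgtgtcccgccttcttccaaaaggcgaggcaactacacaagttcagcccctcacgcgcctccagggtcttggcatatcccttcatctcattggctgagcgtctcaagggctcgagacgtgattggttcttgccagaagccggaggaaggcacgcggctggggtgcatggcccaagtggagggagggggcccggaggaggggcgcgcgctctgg
*Tef* inner start: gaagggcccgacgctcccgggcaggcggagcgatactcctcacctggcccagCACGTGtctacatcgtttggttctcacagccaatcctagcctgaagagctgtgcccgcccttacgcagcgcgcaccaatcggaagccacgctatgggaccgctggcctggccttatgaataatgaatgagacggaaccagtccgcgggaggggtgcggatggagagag
*Nfil3* start: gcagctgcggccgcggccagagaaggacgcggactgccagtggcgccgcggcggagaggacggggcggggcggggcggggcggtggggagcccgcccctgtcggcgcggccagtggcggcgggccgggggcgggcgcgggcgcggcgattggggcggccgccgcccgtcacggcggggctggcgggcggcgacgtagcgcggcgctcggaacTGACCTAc

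The E-boxes of the *Dbp* intron lie at chr7:52963082-52963087 and chr7:52963195-52963200. Both strands were searched, and at least 1 CACGTG was found in 7.81% of the 44298 windows of 300 bp around the DHS summits of WT control cells, and 2 or more in 0.526%. In 32851 promoters of the same length from RefSeq (GRCm38.p6), 7.15% held one. TAGGTCA was in 2.68% of the DHS windows and 2.61% of the promoters. The D-box, searched as TTATGTAA and as TTACGTAA, was in 0.878% and 0.111% of DHS windows, and no DHS window of a member held either. Neither did any member window hold the STAT6-type site TTCNNNNGAA, found in 7.85% of windows, or the SMAD palindrome GTCTAGAC, found in 0.289%. A match is a description of the letters and not of binding.

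*Dbp* (ENSMUSG00000059824.4, chr7:52960458-52965525, + strand) was the PAR bZIP gene with the highest level, with a mean over the 24 columns of 3.92 RPKM, above that of 69.8% of genes in the table. In WT control cells it was at 2.63, 2.97 and 2.29 RPKM, and in WT IL-4 cells at 2.34, 3.43 and 2.14 RPKM. With TGF-β alone it was at 4.97, 6.24 and 6.62 RPKM, and with TGF-β + IL-4 at 8.01, 8.25 and 9.72 RPKM. Every WT library with TGF-β thus lay above every WT library without it, and the group with both cytokines lay above the group with TGF-β alone. In KO cells *Dbp* was at 2.42, 2.38 and 3.05 RPKM in control, 2.83, 2.95 and 2.33 with TGF-β, 3.76, 3.67 and 2.44 with IL-4, and 2.42, 3.79 and 2.49 with both. The 4 KO groups overlapped each other and the WT groups without TGF-β.

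The rise of *Dbp* with TGF-β in WT cells was known from earlier results of these data when the genes were chosen. It is given as the base for its paralogs. Averaged over cultures without and with IL-4, TGF-β raised *Dbp* by 1.18 on the log2(RPKM + 1) scale (SE 0.09, adjusted p = 5.44e-07 by limma, 2.26-fold on that scale), a comparison in which 6.73% of 9794 genes tested were called. Calling a gene took a fold change over 1.5 as well as an adjusted p under 0.01. The change was 0.93 (SE 0.13, adjusted p = 0.000209) without IL-4, where 5.81% of genes were called, and 1.42 (SE 0.13, adjusted p = 3.78e-06) with IL-4 present, where 9.21% were called. The difference between the 2, 0.49 with a 95% interval of 0.08 to 0.90, did not pass adjustment (adjusted p = 0.119, with 1.77% of genes called). IL-4 alone gave a log2 difference from control of −0.01 for *Dbp* (95% interval −0.30 to 0.28, adjusted p = 0.986, with 1.41% of genes called). Added to TGF-β it gave 0.48 (95% interval 0.19 to 0.77, adjusted p = 0.0218, with 2.99% of genes called), which was not called either. By quantitative PCR the paper found *Dbp* RNA raised by both cytokines together and by neither alone. Its RNA-seq account has *Dbp* higher with both cytokines than with TGF-β. The rise with TGF-β alone given here differs from the PCR account, and the reason was not tested. In KO cells the effect of TGF-β on *Dbp* was −0.05 (95% interval −0.29 to 0.19, adjusted p = 1.0), and just 1 of 9620 genes, or 0.0104%, was called there, with 176 at an unadjusted p under 0.05. The effect in KO minus that in WT was −1.23 (SE 0.15, 95% interval −1.55 to −0.91, adjusted p = 3.11e-06), with 5.24% of genes called. *Dbp* was accordingly lower in KO than in WT cells with TGF-β, by −0.90 (SE 0.15, adjusted p = 8.41e-05, with 9% of genes called), and with both cytokines, by −1.32 (SE 0.15, adjusted p = 5.90e-07, with 9.16% called), and in control the difference was −0.01 (adjusted p = 0.986).

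Markers of myeloid cells moved in the same libraries as *Dbp*. Of the 10 markers listed, 9 were in the table, and their summed RPKM ran from 10.1 to 22.99 in WT control, 55.6 to 104 with TGF-β, 22.5 to 59.0 with IL-4 and 102 to 156 with both. In KO cells the sums ran from 0.686 to 25.4 RPKM over all cultures. The 6 myeloid markers that passed the filter on low values were all called higher with TGF-β in WT cells, where 432 of 9794 genes were. That filter takes the mean over all WT columns, so the groups where the markers are high count towards it. In WT control alone, 5 myeloid markers had a mean of at least 1 RPKM. The part of these markers in the change of *Dbp* was not tested. In bulk samples such as these, fewer cells of a type and less RNA per cell cannot be told apart. The last 689 bp of *Dbp* overlap *Sphk2*, which runs on the opposite strand, and the library method does not keep strand. *Sphk2* means lay between 16.1 and 18.4 RPKM in the 8 groups, and its own TGF-β effect in WT was −0.05 (adjusted p = 0.395). Whether reads of *Sphk2* were counted to *Dbp* and added to its level was not tested.

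**Figure D1:**
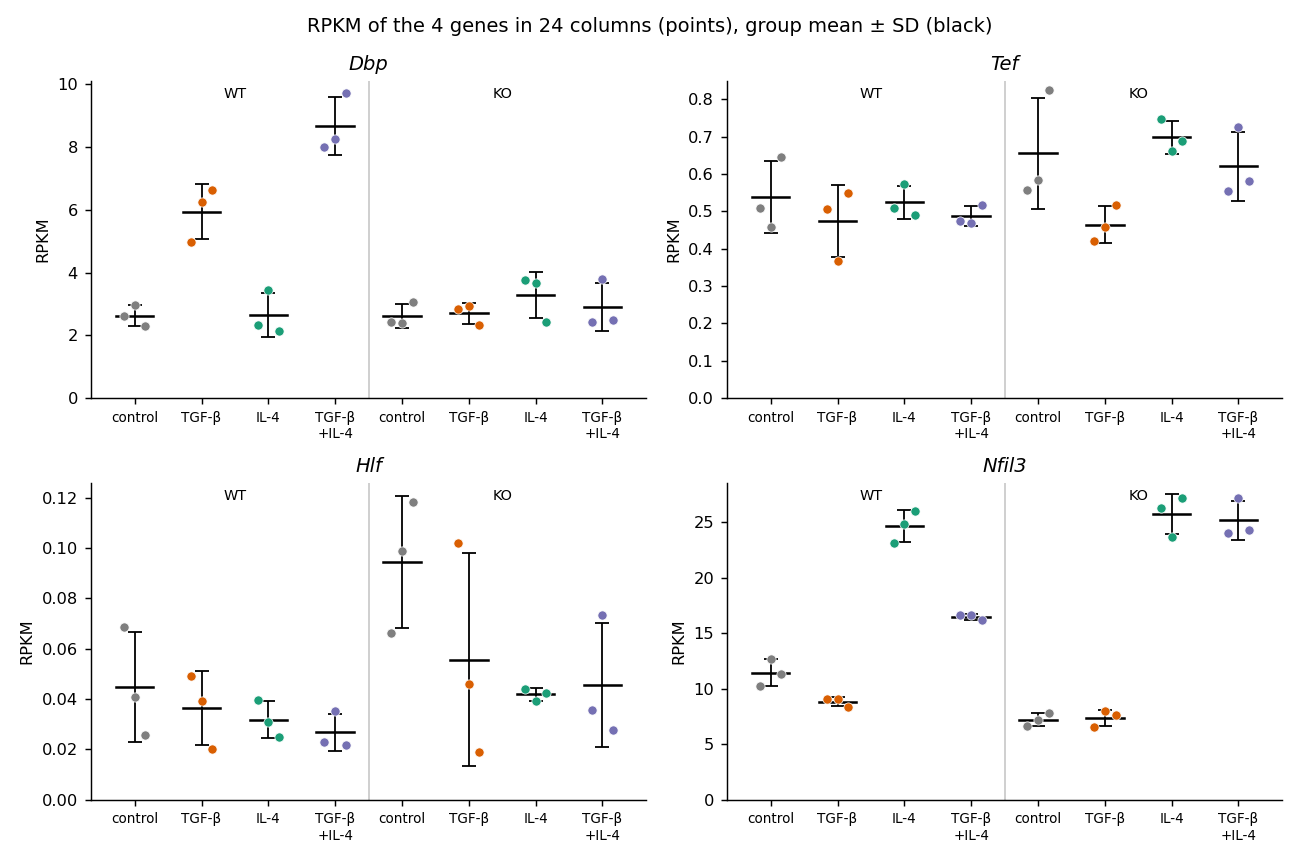
RPKM of the 4 genes in each of the 24 columns, read by position, by group. Points are libraries and bars are means with SD (n = 3). *Dbp* is highest in the WT groups with TGF-β, *Nfil3* in the groups with IL-4, and *Tef* and *Hlf* overlap between neighbouring groups.

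*Tef* (ENSMUSG00000022389.7, chr15:81632851-81657291, + strand) showed no rise where *Dbp* rose. Its mean was 0.558 RPKM, above 56.4% of genes, and it did not reach the mean of 1 RPKM needed for the test across genes. In WT cells it was at 0.508, 0.459 and 0.646 RPKM in control, 0.506, 0.367 and 0.550 with TGF-β, 0.508, 0.573 and 0.491 with IL-4, and 0.473, 0.470 and 0.517 with both. The WT groups overlapped throughout, and the group with both cytokines, where *Dbp* was highest, had a *Tef* mean of 0.487 RPKM against 0.538 in control. The TGF-β effect on *Tef* in WT was −0.05 on the log2(RPKM + 1) scale (two-sided exact permutation p = 0.25). At a level this low the added 1 shrinks differences, and with 0.1 added in its place the value was −0.12 (exact permutation p = 0.255).

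In KO cells *Tef* was at 0.556, 0.584 and 0.826 RPKM in control, 0.419, 0.457 and 0.518 with TGF-β, 0.746, 0.661 and 0.688 with IL-4, and 0.554, 0.727 and 0.581 with both. Every KO library with TGF-β alone lay below every KO control library, while the cultures with IL-4 overlapped. The TGF-β effect was −0.12 (two-sided exact permutation p = 0.02), in the same direction as in WT and in cells from which the receptor gene was to be deleted. This was 1 of 8 such tests, and without a filter on low values the limma adjusted p was 1.0, so it does not stand as a change. The group means of *Tef*, from 0.465 RPKM in KO TGF-β to 0.698 RPKM in KO IL-4, could be put in order, but each group overlapped its neighbour in that order. Groups further apart did not all overlap, and every KO IL-4 library (0.661 to 0.746 RPKM) lay above every WT library (at most 0.646 RPKM). The mean of *Tef* was 0.610 RPKM over the KO columns and 0.506 RPKM over the WT columns, a difference that was not tested. The first 193 bp of *Tef* overlap *Gm17597* on the opposite strand, whose reads could be counted to either.

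*Hlf* (ENSMUSG00000003949.8, chr11:90197849-90252231, − strand), the PAR bZIP gene known also as a fusion partner in leukaemia, was close to the limit of detection. It lay between 0.0190 and 0.118 RPKM with a mean of 0.0471, above 44.4% of genes, and was above 0 in all 24 columns. Read from the steps between its RPKM values, *Hlf* had from 3 to 19 reads, and 19 of 24 columns had fewer than 10. Counting alone gives an error of 57.7% at 3 reads and 22.9% at 19, against 13.1% to 6.11% for *Dbp*, which had 58 to 268 reads, and 6.06% to 2.32% for *Nfil3*, which had 272 to 1850. The TGF-β effect on *Hlf* was −0.01 in WT (two-sided exact permutation p = 0.415) and −0.02 in KO (p = 0.32). The group means ran from 0.0268 RPKM in WT TGF-β + IL-4 to 0.0943 RPKM in KO control, and neighbouring groups in that order overlapped. Groups further apart did not all overlap. KO control libraries (0.0662 to 0.118 RPKM) lay above those of WT TGF-β (at most 0.0493), WT IL-4 (at most 0.0396) and WT with both (at most 0.0353). The mean of *Hlf* was 0.0593 RPKM over the KO columns and 0.0349 RPKM over the WT columns, also not tested. KO IL-4 lay below KO control in each block, at 0.358 to 0.664 of its level, a difference that was not tested.

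*Nfil3* (ENSMUSG00000056749.7, chr13:53062578-53076442, − strand) had the highest level of the 4 genes, with a mean of 15.9 RPKM, above 82.5% of genes, and it followed IL-4. In WT control cells it was at 10.2, 12.7 and 11.4 RPKM, and with IL-4 at 23.2, 24.8 and 25.999 RPKM. With TGF-β alone it was at 9.10, 9.03 and 8.35 RPKM, and with both cytokines at 16.7, 16.6 and 16.2 RPKM. The 4 WT groups did not overlap, with IL-4 highest, then both cytokines, control and TGF-β. In KO control cells it was at 6.62, 7.17 and 7.81 RPKM, with TGF-β at 6.57, 7.95 and 7.64, with IL-4 at 26.3, 23.7 and 27.2, and with both at 24.04, 27.2 and 24.3. The KO libraries thus fell into a low pair of groups without IL-4 and a high pair with it, and within each pair the groups with and without TGF-β overlapped. Over all 8 groups, KO IL-4 (25.7 ± 1.79 RPKM), KO TGF-β + IL-4 (25.2 ± 1.75) and WT IL-4 (24.7 ± 1.43) overlapped, and KO TGF-β (7.39 ± 0.727) overlapped KO control (7.20 ± 0.594). WT TGF-β + IL-4 (16.5 ± 0.275), WT control (11.4 ± 1.22) and WT TGF-β (8.83 ± 0.415) each stood apart from their neighbours.

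IL-4 raised *Nfil3* in both genotypes. The IL-4 effect was 0.94 in WT (SE 0.05, adjusted p = 5.83e-08 by limma, 1.92-fold on the log2(RPKM + 1) scale), where 1.5% of genes were called, and 1.67 in KO (SE 0.06, adjusted p = 1.46e-09, 3.19-fold), where 2.57% were called. Within the blocks of 4 columns, *Nfil3* was higher with IL-4 in 6 of 6 WT pairs, by 1.83 to 2.29 times, and in 6 of 6 KO pairs, by 3.18 to 3.97 times. The effect was larger in KO cells by 0.73 (95% interval 0.57 to 0.90, adjusted p = 8.76e-06), a comparison in which just 0.555% of genes were called. In control cells KO was lower than WT by −0.60 (SE 0.08, adjusted p = 1.80e-05, with 2.64% of genes called), while with IL-4 alone the difference was 0.06 (95% interval −0.11 to 0.22, adjusted p = 0.690, with 2.91% called). With TGF-β + IL-4 the genotypes differed by 0.58, as given below. The call in control cells was lost when WT control replicate 2 (−0.53) or KO control replicate 1 (−0.55) was left out, through the fold change limit.

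TGF-β went with lower *Nfil3* in WT cells, the direction opposite to that of *Dbp*. The TGF-β effect was −0.44 (SE 0.05, 95% interval −0.55 to −0.33, adjusted p = 1.29e-05 by limma, two-sided exact permutation p = 0.005), a fold of 0.735, which is under the limit of 1.5 in size, so the gene was not called. *Nfil3* was lower with TGF-β in 6 of 6 WT pairs of the blocks, at 0.622 to 0.889 of the level without it. Against IL-4 alone, TGF-β + IL-4 gave −0.55 (SE 0.07, adjusted p = 5.10e-05), also short of the fold limit, except that it was called when WT IL-4 replicate 1 was left out (−0.60). Against TGF-β alone, the addition of IL-4 raised *Nfil3* by 0.83 (SE 0.07, adjusted p = 7.47e-06). In KO cells the TGF-β effect was 0.00 (95% interval −0.13 to 0.13, adjusted p = 1.0, exact permutation p = 0.995). The KO minus WT difference of the TGF-β effect, 0.44 (95% interval 0.28 to 0.61, adjusted p = 0.00026), was again under the fold limit. With TGF-β + IL-4, *Nfil3* was higher in KO than in WT by 0.58 (adjusted p = 5.27e-06), a fold just under 1.5, and it was called in 4 of the 6 repeats that left out 1 library.

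Markers of NK cells, which need NFIL3 to develop, and of CD8 T cells moved in part with *Nfil3*. The summed RPKM of the 2 CD8 T markers ran from 24.8 to 26.9 in WT control, 16.6 to 17.3 with TGF-β, 29.9 to 36.3 with IL-4 and 25.3 to 26.7 with both. In KO cells it ran from 14.3 to 16.7 without IL-4 and from 26.3 to 28.3 with it. This sum is mostly *Cd8b1*, with a median of 18.9 RPKM over all columns against 4.45 for *Cd8a*. With TGF-β in WT cells the 2 went opposite ways. *Cd8b1* was called at −0.69 (adjusted p = 4.17e-07 by limma), and *Cd8a* was at 0.18 (adjusted p = 0.00983), not called. The 2 NK markers summed to 2.11 to 2.30 RPKM in WT control, 0.558 to 0.802 with TGF-β, 3.45 to 5.35 with IL-4 and 1.51 to 2.03 with both, and in KO cells to 1.41 to 2.24 without IL-4 and 2.63 to 4.63 with it, with no overlap, as for *Nfil3*. The NK marker *Ncr1* was itself called with IL-4 in WT (0.62) and in KO cells (0.70). The other NK marker, *Klrb1c*, was under the filter on low values and was not tested. The part of these NK and CD8 T cell markers in the levels of *Nfil3* was not tested.

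**Figure D2:**
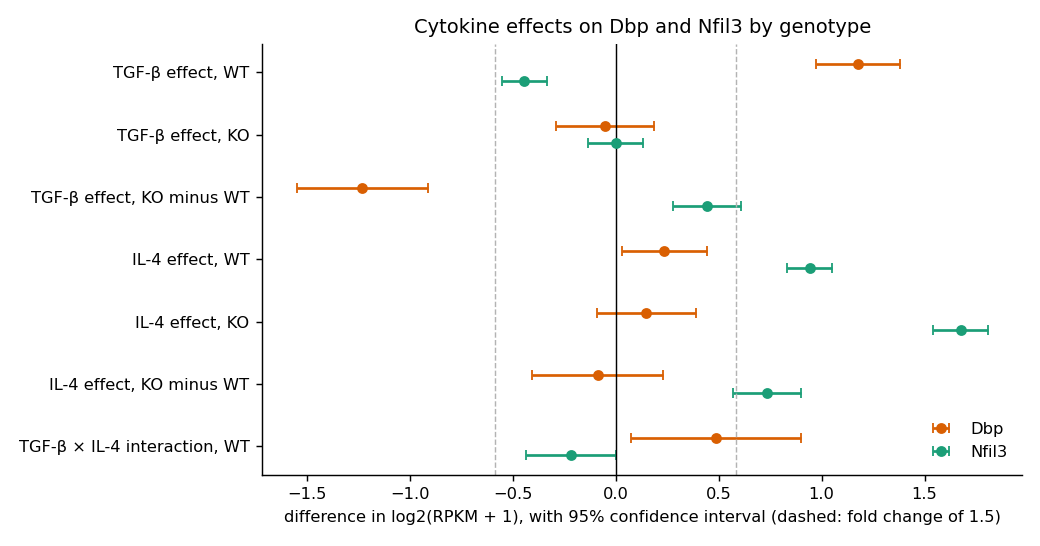
Change of *Dbp* and *Nfil3* on the log2(RPKM + 1) scale with TGF-β and with IL-4 in WT and KO cells, as points with 95% intervals from limma, with the KO minus WT differences and the interaction of the cytokines. Dashed lines mark a fold change of 1.5. In WT cells TGF-β goes with higher *Dbp* (1.18) and lower *Nfil3* (−0.44), in KO cells with neither, and IL-4 with higher *Nfil3* in both genotypes.

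In WT cells neither *Tef* nor *Hlf* shared the rise of *Dbp*, and *Nfil3* lay lower. In the same WT libraries the change of *Dbp* with TGF-β exceeded that of *Tef* by 1.23, that of *Hlf* by 1.19 and that of *Nfil3* by 1.62 on the log2(RPKM + 1) scale. Each of these 3 differences had a two-sided exact permutation p of 0.005, the smallest that 400 arrangements can give. They are a description, since the rise of *Dbp* was known beforehand. At the low levels of *Tef* and *Hlf* the added 1 shrinks their changes, so the excess over them mostly restates the rise of *Dbp*. With 0.1 added in place of 1 the differences were 1.54, 1.49 and 1.89, and *Hlf* was still shrunk. Ratios of RPKM with to without TGF-β within WT blocks need no added value. They were 1.89 to 4.53 for *Dbp*, 0.799 to 1.05 for *Tef* and 0.58 to 1.15 for *Hlf*. Across all 24 columns, a measure that needs no column label, Pearson's r with *Dbp* was −0.256 for *Tef*, −0.291 for *Hlf* and −0.0049 for *Nfil3*, and 65.1%, 67.2% and 50.4% of 9725 genes had a higher r. Within genotypes the signs differed: in the 12 WT columns r was −0.340, −0.338 and −0.246, and in the 12 KO columns, where *Dbp* ranged only from 2.33 to 3.79 RPKM, it was 0.495, 0.126 and 0.401. The columns share cultures and genotypes, so these values describe the table and carry no test.

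**Figure D3:**
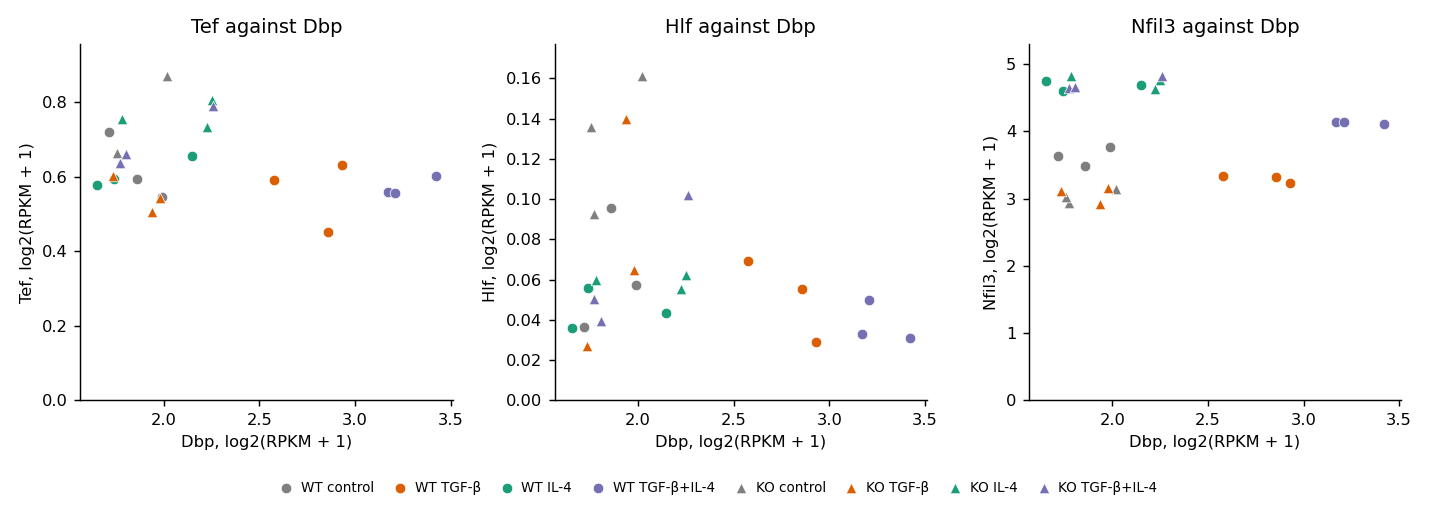
Level of *Dbp* (log2(RPKM + 1), horizontal) against that of *Tef*, *Hlf* and *Nfil3* (vertical) in the 24 columns, coloured by culture, with circles for WT and triangles for KO. The WT columns with TGF-β lie to the right with no rise of *Tef* or *Hlf*, and *Nfil3* splits the columns by IL-4.

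Genes whose pattern was most like that of a member were taken as the 5 with the highest r over the 24 columns among genes with a mean of at least 1 RPKM. For *Dbp* they were *Mtmr3* (r = 0.949), *N4bp1* (0.945), *Abhd12* (0.943), *Phyh* (0.941) and *Lzts2* (0.940). *Mtmr3*, a phosphoinositide phosphatase gene, had group means of 4.17 RPKM in WT control, 6.86 with TGF-β, 3.35 with IL-4 and 9.02 with both, and 3.55 to 4.12 in KO groups. For *Nfil3* they were *Gata3* (r = 0.988), *6430571L13Rik* (0.984), *Zfp280b* (0.980), *Gnpda1* (0.973) and *Atf3* (0.972). *Gata3*, the factor that defines Th2 cells, was at 21.2 RPKM in WT control, 10.6 with TGF-β, 71.8 with IL-4 and 33.0 with both, and in KO cells at 8.92, 8.26, 67.1 and 69.4. It had the order of *Nfil3* among the 4 WT groups and, like it, its KO means with IL-4 lay close together. *Atf3*, a stress-induced bZIP gene, was at 8.003, 4.84, 26.1 and 11.2 RPKM in the same WT groups.

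Clock genes other than the PAR bZIP genes moved with TGF-β in part. Of 19 listed, 13 were tested in WT cells. TGF-β raised 3 of them and lowered 1, against 6.73% of all genes called, and the list's median log2 difference was 0.08 beside 0.01 over all genes. The partners of the activating arm rose: *Arntl*, which encodes BMAL1, by 0.74 (adjusted p = 2.68e-07 by limma), from 3.99 RPKM in control to 6.22 with TGF-β and 7.41 with both, and *Npas2*, a substitute for CLOCK, by 0.89 (adjusted p = 1.35e-07), from 1.72 RPKM to 4.47 and 6.67. *Nr1d1*, which encodes the repressor REV-ERBα, rose by 0.73 (adjusted p = 3.24e-07), from 1.05 RPKM to 2.70 and 2.02.

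*Bhlhe40*, an E-box repressor that also acts in T cell cytokine control, fell by 0.63 (adjusted p = 1.86e-06 by limma). The genes that, like *Dbp*, are driven through E-boxes did not all follow it: *Per1* was at −0.03 (adjusted p = 0.604) and *Ciart* at −0.01 (adjusted p = 0.937), while *Nr1d2*, with 0.47 (adjusted p = 1.53e-05), and *Cry1*, with 0.19 (adjusted p = 0.00149), stayed under the fold limit. For *Per1* the average joins opposite changes. With TGF-β its mean went from 7.02 to 5.63 RPKM without IL-4 and from 6.06 to 7.17 RPKM with it. Its interaction was 0.48 (adjusted p = 0.00887 by limma), under the fold limit. In KO cells 12 clock genes were tested and none was called with TGF-β, as just 1 of all genes was. The KO minus WT difference of the TGF-β effect was called for 3 of 13 clock genes, against 5.24% of all genes, *Npas2* (−0.96), *Arntl* (−0.65) and *Nr1d1* (−0.65). IL-4 raised *Npas2* in WT (0.60) and in KO (1.09) cells.

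**Figure D4:**
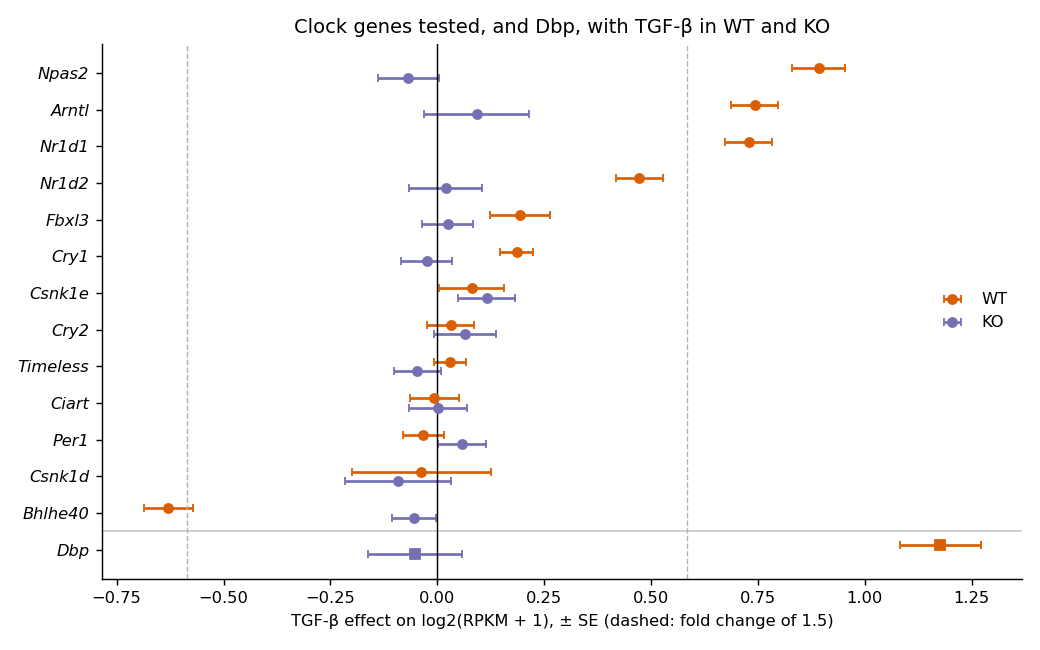
TGF-β effect (log2(RPKM + 1) difference with SE) on the 13 clock genes given here and on *Dbp* (squares), in WT and KO cells. *Dbp*, *Npas2*, *Arntl* and *Nr1d1* rise in WT, *Bhlhe40* falls, and the KO values lie near 0. *Nr1d1* has no KO value because its mean there was under 1 RPKM.

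Genes reported in other tissues as targets of PAR bZIP factors or NFIL3 were mostly under the filter on low values or not called. Of 19 listed, 8 were tested, since liver genes such as *Alb* and *Cyp7a1* did not reach 1 RPKM, and the median TGF-β effect in WT was −0.10 beside 0.01 over all genes. None was called higher and 2 were called lower, against 6.73% of all genes called in either direction. *Il3*, which encodes the cytokine after which NFIL3 is named, fell by 2.36 (adjusted p = 3.44e-08 by limma), and *Eomes*, which encodes a T-box factor of cytotoxic cells, fell by 1.13 (adjusted p = 2.87e-06). The fall of *Eomes* depended on IL-4, with means from 4.46 to 0.611 RPKM without it and from 2.28 to 1.28 RPKM with it. Its interaction was called at 1.22 (adjusted p = 0.00493 by limma, with 1.77% of genes called). For TGF-β + IL-4 against IL-4, 1 of the 8 was called lower. Textbook targets of PAR bZIP factors were not called, with *Usp2* at −0.33 (adjusted p = 0.000487), *Alas1* at −0.01 (adjusted p = 0.836) and *Por* at −0.03 (adjusted p = 0.558). With IL-4 none of the 8 was called in WT, where 1.5% of all genes were. The D-box TTATGTAA was in the RefSeq promoter of 2 of 16 target genes that matched, *Per3* and *Alb*, and of 2 of 15 clock genes, *Per3* and *Timeless*, against 1.11% of 27025 genes.

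Among the other bZIP genes listed, none was called higher and 1 was called lower with TGF-β in the averaged WT effect. Over all genes 432 of 9794 were called higher and 227 lower, so the count does not set *Dbp* apart from other bZIP genes. Of 18 listed, 14 were tested, with a median TGF-β effect of −0.05 in WT. *Bach2*, which encodes a repressor that keeps T cells naïve, was at 0.49 (adjusted p = 9.33e-08 by limma), *Ddit3* at 0.37 (adjusted p = 0.000343) and *Xbp1* at 0.24 (adjusted p = 0.000693), all under the fold limit. *Crem* at −0.44 (adjusted p = 8.76e-05) and *Batf* at −0.41 (adjusted p = 2.63e-05) were lower, also under that limit. For TGF-β + IL-4 against IL-4, 1 of the 14 was called higher and 2 lower, against 9.21% of all genes called. The gene called higher was *Bach2* (0.68, adjusted p = 2.46e-07). In that comparison the mean of *Batf* went from 129 to 84.4 RPKM and that of *Batf3* from 18.8 to 10.8 RPKM. *Batf3*, which encodes a partner of JUN and IRF4 in T cells and dendritic cells, fell by 0.59 (adjusted p = 5.11e-05 by limma). With IL-4, *Batf3* rose by 1.19 in WT (adjusted p = 4.18e-07) and by 1.94 in KO cells (adjusted p = 2.26e-09), the same signs as *Nfil3*, and the KO minus WT difference of its IL-4 effect was 0.74 (adjusted p = 0.000248). *Batf*, required for Th17 and Th9 cells, was called with IL-4 in KO cells (0.92, adjusted p = 8.50e-08), and in WT cells for IL-4 against control (0.69, adjusted p = 5.04e-05), while the averaged WT effect of 0.49 (adjusted p = 2.26e-05) was under the fold limit.

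The chromatin of the 4 genes was open to different degrees, with 1 library per condition and therefore no error. The lists held 44298 DHSs in WT control, 33665 in KO control, and with both cytokines 33880 in WT and 27145 in KO, so that loss of a DHS and lower depth, which is unknown, cannot be told apart. *Dbp* had a DHS at its start in all 4 lists, with a fold enrichment over background of 9.69 in WT control, 6.85 in KO control and, with both cytokines, 8.34 in WT and 7.19 in KO. These stood above 86.1%, 79.9%, 82.5% and 81.4% of the DHSs of their own lists, and the order of the lists was not that of *Dbp* RNA. The intronic DHS with the 2 E-boxes was in all lists as well, at 4.53, 4.63, 4.15 and 5.00. A further DHS that spans an exon and the next intron (chr7:52962243-52962526 in WT control) was found in both control lists, at 3.74 and 3.28, and in neither list with TGF-β + IL-4, also when each list was held to its 27145 top DHSs.

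*Tef* had a strong DHS at its inner start in all 4 lists, with fold enrichments of 11.5, 8.41, 9.12 and 7.61 in the same order, higher than at *Dbp* in each list although its RNA was lower. Its outermost start had a DHS in WT control (7.49) and KO TGF-β + IL-4 (4.29) alone. *Hlf* had a DHS at its start in all 4 lists, at 7.28, 4.57, 4.75 and 4.32, although only 12.2%, 10.5%, 10.1% and 8.49% of the genes with a mean under 0.1 RPKM had one. *Nfil3* was the reverse case. Its one annotated start had a DHS only in WT control, at a fold enrichment of 3.19, above 2.97% of that list and lost at a −log10 q of at least 5, whereas 89.4% to 92.9% of genes with a mean of at least 1 RPKM had a DHS at a start in the same lists. A DHS upstream, with its summit at −1928 bp from the start in WT control, was found in all 4 lists, at 6.57, 4.63, 4.69 and 3.64. The start of *Nfil3* printed above is 83.6% G and C, against 62.7% for that of *Dbp* and 62.3% for that of *Tef*, and the part of base composition in the missing DHS was not tested.

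**Figure D5:**
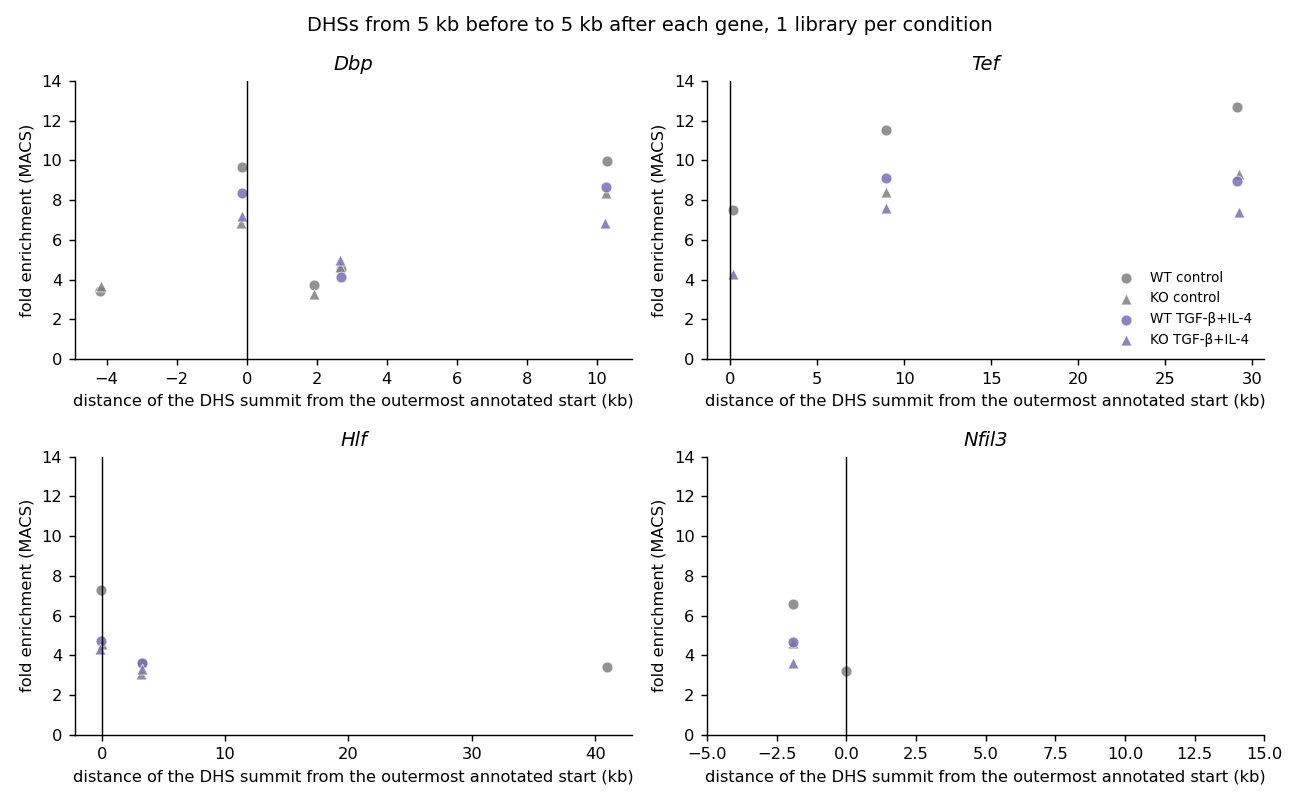
DHSs at the 4 genes in the 4 DNase-seq lists, by distance of the summit from the outermost annotated start (horizontal, in kb along the gene) and fold enrichment (vertical), with circles for WT, triangles for KO and 1 library per condition. *Dbp*, *Tef* and *Hlf* have a DHS at a start in every list, and *Nfil3* has one at its start only in WT control.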

How the data were processed

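The RNA-seq table was deposited as RPKM for 24089 genes in 24 columns. Per the paper, the authors prepared Smart-seq2 libraries, which do not keep strand, aligned them with Bowtie2 to the mm9 genome, discarded duplicates and poorly mapped reads, and computed RPKM with edgeR. The authors called DHSs with MACS2 on each library alone, and the deposited lists give each DHS a fold enrichment (a ratio to background) and the −log10 of its p-value and q-value. Tool versions are not given in the sources used here. RPKM are not counts, so no count model was used.

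Columns were read by position, because the headings conflict with the study's read counts, which served only to identify columns. limma 3.58.1 (R 4.3.3) was fitted with a trend to log2(RPKM + 1) for genes with a mean of at least 1 RPKM over the columns in the fit (9794 in WT, 9620 in KO, 9726 over all), with Benjamini-Hochberg adjustment over all genes tested. Calls needed a fold change over 1.5 and an adjusted p under 0.01. WT or KO comparisons used their 12 columns, and genotype comparisons all 24. Of the 4 members, 2 (*Dbp* and *Nfil3*) passed the filter on low values. All 4 were tested by an exact permutation of TGF-β within each IL-4 level, 400 arrangements, two-sided, 8 tests. On simulated data for the TGF-β effect in WT (9794 genes, 200 changed), 98% of log2 changes of 1 and 57% of those of 0.6 were recovered, with 0 false calls.

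Named genes were the 4 members, the 5 genes most like *Dbp* and *Nfil3* over 24 columns, and genes called in each list, with *Tgfbr1* and *Il9* as checks. *Sphk2*, *Gm17597* and list genes given with values without a call were named after their values were seen. The members and lists were chosen with earlier results of these data known, and 1 listed gene is not reported here. DHSs were assigned to a gene within 1000 bp of an annotated start (mm9) or in its body, and motifs were searched in 300 bp around summits and in RefSeq promoters, 250 bases before to 50 after a start. The other alternatives were pseudocount, filter, scaling, moderation, threshold, fit, replicate block, leaving out each library, and for DHSs window, q and list length. Python 3.11.15, numpy 2.4.6, pandas 2.3.3, scipy 1.17.1, samtools 1.23.1 and matplotlib 3.10.9 were used.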

Additional observations from a re-analysis of the deposited data

Results flagged for a closer look

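The effect of TGF-β on *Dbp* differed between genotypes by the test of the difference itself, with KO minus WT at −1.23 on the log2(RPKM + 1) scale. The effects on *Nfil3* differed as well, with KO minus WT at 0.44 for TGF-β and at 0.73 for IL-4. Results were flagged by an adjusted p under 0.01 alone, and the 0.44 was under the fold limit and not called.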

How the results depend on the processing

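The 46 results were recomputed under 722 alternatives, of which 663 kept the direction and the side of the threshold. With the 8 WT columns identified by read counts alone, 16 of 16 results did. Read under the headings as deposited, the TGF-β effect in WT was 0.46 for *Dbp* (adjusted p = 0.969 by limma, exact permutation p = 0.255) and −0.0928 for *Nfil3* (exact permutation p = 0.785), and the IL-4 effect on *Nfil3* was 0.31 in WT and 0.62 in KO. Also as headed, *Dbp* in WT with both cytokines against control was 0.61, *Nfil3* in KO 0.66, and the KO minus WT differences were −0.73 (*Dbp*, TGF-β) and 0.31 (*Nfil3*, IL-4). The excess of the *Dbp* change was 0.52 over *Tef*, 0.48 over *Hlf* and 0.55 over *Nfil3*, and none of these had a permutation p under 0.05. *Hlf* in WT (−0.0182, exact permutation p = 0.015) and *Dbp* in KO (−0.27, p = 0.025) had an unadjusted p under 0.05 as headed, each as 1 of 8 tests, and *Tef* in KO (−0.0792, p = 0.195) did not. The sign of *Dbp* turned as headed in the interaction (−0.30), in KO both against control (−0.21), in WT IL-4 against control (0.30), in both against TGF-β (−0.0046) and in KO against WT with IL-4 (−0.19), none of them called. As headed, 0 of 9794 genes were called for the TGF-β effect in WT, against 659 by position, and 0 against 147 for IL-4.

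At an adjusted p under 0.05 with no fold limit, 8 of 34 results became called. One was *Dbp* in WT with both cytokines against TGF-β alone (0.48). Others were *Nfil3* for the TGF-β effect in WT (−0.44), for both cytokines against control (0.50) and for the KO minus WT difference of the TGF-β effect (0.44). At that threshold 4738 genes were called for the TGF-β effect in WT and 1679 for IL-4. With a minimum of 5 RPKM, 423 and 92 genes were called, and *Dbp* had no value. For the interaction, 173 genes were called, against 1070 at the looser threshold, 106 without the filter on low values, 91 in the identified columns 108 without WT control replicate 1, 115 without replicate 3 of WT IL-4 and 107 without replicate 3 of WT with both cytokines. For KO against WT with IL-4, 283 genes were called, and 174 without replicate 1 of WT IL-4. For the KO TGF-β effect 0 to 4 genes were called under every alternative. Values near 0 changed sign: *Nfil3* with TGF-β in KO under median ratio scaling (−0.0040), under quantile normalization (−0.00026) and with libraries left out (−0.0266 to 0.0372), and *Dbp* in KO against WT control under quantile normalization (0.01) and with libraries left out (−0.0907 to 0.0619). Leaving out libraries gave −0.16 to 0.0899 for *Dbp* in WT IL-4 against control, −0.0607 to 0.18 in KO both against control, and 1.13 to 1.25 for its TGF-β effect in WT, called in all 12 repeats. With 0.1 added in place of 1, *Nfil3* was called in KO against WT with both cytokines (0.61).

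Columns of the same replicate number did not deviate together in every case: of 36 pairs, 18 had a correlation over 0.1 (range −0.297 to 0.553), and 18 of 24 columns correlated best with their own number, a hint from the data. With the number as a replicate block, no call of *Dbp* or *Nfil3* changed, and 663 genes were called for the TGF-β effect in WT. In that fit the KO against WT differences within a culture refer to replicate 1 of each genotype. The value of 0.0889 for *Dbp* in KO against WT control is therefore not a check of the main value of −0.01. The permutation tests cannot give a p under 0.005. For *Hlf* the depth is the limit, and for *Tef* whole reads could not be recovered from the RPKM steps.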
